A study of Zingiber officinale with 6 samples.

Results

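LOC122014941 and LOC121971467 are 2 ginger (Zingiber officinale) genes that encode GRAS proteins, out of 55601 genes in the deposited tables. The annotation of the study gives the product of LOC122014941 as chitin-inducible gibberellin-responsive protein 1-like and that of LOC121971467 as scarecrow-like protein 9. Both were picked by their IDs, with earlier results on these same libraries known: of the GRAS genes called higher in exposed plants they had the largest and the smallest fitted change. Their difference between the groups is therefore what they were chosen for, and it is given below as a description and not as a test.

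The leaf blades came from 3 plants exposed to volatile organic compounds of Pythium oligandrum GAQ1 (Po-VOCs) and from 3 control plants, with 1 RNA-seq library from each plant. All were Laiwu ginger raised from tissue culture, grown 1 to a pot on a sealed glass jar for 21 days, and sampled at the 2 uppermost leaves. The jar held V8 medium in both groups, with P. oligandrum growing on it for the Po-VOCs plants and with nothing on it for the control plants. The vapour reached the plants through holes under the roots, whereas the RNA was taken from the leaf. The total count on genes was 13695463 to 14662442 per library. A leaf blade mixes cell types, so fewer cells of a type and less RNA per cell cannot be told apart in these values. Only 1 defining leaf gene could be found by its product name, LOC122029873 (a CP24 chlorophyll a-b binding protein of the photosystem II antenna), which had 35.8, 0.755 and 2.22 FPKM in Po-VOCs plants 1 to 3, against 0.645, 0.844 and 0.214 FPKM in control plants 1 to 3. Product names were at hand only for genes that the study listed as upregulated, so the direction of LOC122029873 is not independent evidence. That single gene is too little to check the tissue label.

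GRAS proteins are plant-specific regulators of transcription, named after GAI, RGA and SCARECROW of Arabidopsis, that share a conserved C-terminal domain. The DELLA members hold back growth until gibberellin, bound to its receptor GID1, leads to their destruction. CIGR1, for which the product of LOC122014941 is named, was found in rice cells as a gene induced by chitin fragments and by gibberellin, and it belongs to the PAT1 branch of the family. Scarecrow-like protein 9 belongs to the LISCL branch, whose founding member was described in lily anthers as an activator of transcription.

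LOC122014941 is the GRAS gene for which the study designed a qPCR assay, and the sequences of its primers follow. They are given 5′ to 3′, with the 5 bases from which the polymerase extends in capitals.
LOC122014941 forward: gatcaggatgctgctGGGTT
LOC122014941 reverse: agatgcatgatgattggatCAGTG
The forward primer has 20 bases, 11 of them G or C, and the reverse primer has 24 bases, 10 of them G or C. Where they lie in the gene, and whether they also match other genes of the same product, was not analysed here. The qPCR values were not used. The gene itself lies on chromosome 8B from 31477640 to 31479740 of the Zo_v1.1 assembly, has 1 annotated transcript, and was counted over 1803 bases of its span of 2101 bases. LOC121971467 lies on chromosome 4A from 139371422 to 139374590, has 2 annotated transcripts, and was counted over 2845 bases of its span of 3169 bases. No other annotated gene overlaps either span.

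LOC122014941 was expressed at about 4 times the level in exposed leaves. It had 21.3, 44.3 and 36.9 FPKM (read pairs scaled to the length of the gene and to the total of the library) in Po-VOCs plants 1 to 3, against 6.33, 6.32 and 12.4 FPKM in control plants 1 to 3. Every exposed plant lay above every control plant, and the lowest exposed plant had 1.72 times the level of the highest control plant. The mean was 34.2 ± 11.7 FPKM in Po-VOCs plants and 8.35 ± 3.51 FPKM in control plants (SD, n = 3 each). The change fitted by edgeR was 2.05 on the log2 scale (standard error 0.39), or 4.15-fold.

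In LOC122014941, Po-VOCs plant 1 and control plant 3 differed from the other plants of their groups beyond counting error. The counts behind these values were 526, 1171 and 934 in Po-VOCs plants 1 to 3, against 160, 163 and 316 in control plants 1 to 3. Exact 95% Poisson intervals cover counting error only. In the exposed plants they ran from 482 to 573, from 1105 to 1240 and from 875 to 996. On counts without scaling, none of these 3 intervals met another. Scaled to the library total as FPKM, those of plants 2 (41.8 to 46.9) and 3 (34.5 to 39.3) also stayed apart. After scaling by the TMM factor as well, the log2 CPM was 5.15, 6.31 and 6.19 in Po-VOCs plants 1 to 3. TMM-scaled intervals were not computed, so whether plants 2 and 3 differed beyond counting error was not tested. In the control group the interval of the unscaled count of plant 3 (282 to 353) lay above those of plant 1 (136 to 187) and plant 2 (139 to 190). Po-VOCs plant 1 was thus the low plant of its group and control plant 3 the high plant of its own. The coefficient of variation was 34.4% among exposed plants and 42.0% among control plants.

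LOC121971467 was higher in exposed leaves by a smaller factor and with less spread. It had 11.0, 8.94 and 11.4 FPKM in Po-VOCs plants 1 to 3, against 3.46, 5.38 and 3.26 FPKM in control plants 1 to 3. The groups again did not overlap, and the lowest exposed plant had 1.66 times the level of the highest control plant. The mean was 10.4 ± 1.32 FPKM in Po-VOCs plants and 4.03 ± 1.17 FPKM in control plants (SD, n = 3 each). The fitted change was 1.37 on the log2 scale (standard error 0.25), or 2.59-fold. The counts were 429, 373 and 455 in Po-VOCs plants 1 to 3, against 138, 219 and 131 in control plants 1 to 3. On counts without scaling, the Poisson intervals of exposed plants 1 (389 to 472) and 3 (414 to 499) overlapped. That of plant 2 (336 to 413) reached into that of plant 1 but not into that of plant 3. After the same scaling as above, the log2 CPM was 4.86, 4.66 and 5.16 in Po-VOCs plants 1 to 3. Control plant 2 (191 to 250) stood above the other control plants, at 116 to 163 in plant 1 and 110 to 155 in plant 3. The coefficient of variation was 12.6% among exposed plants and 29.1% among control plants.

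**Figure D1:**
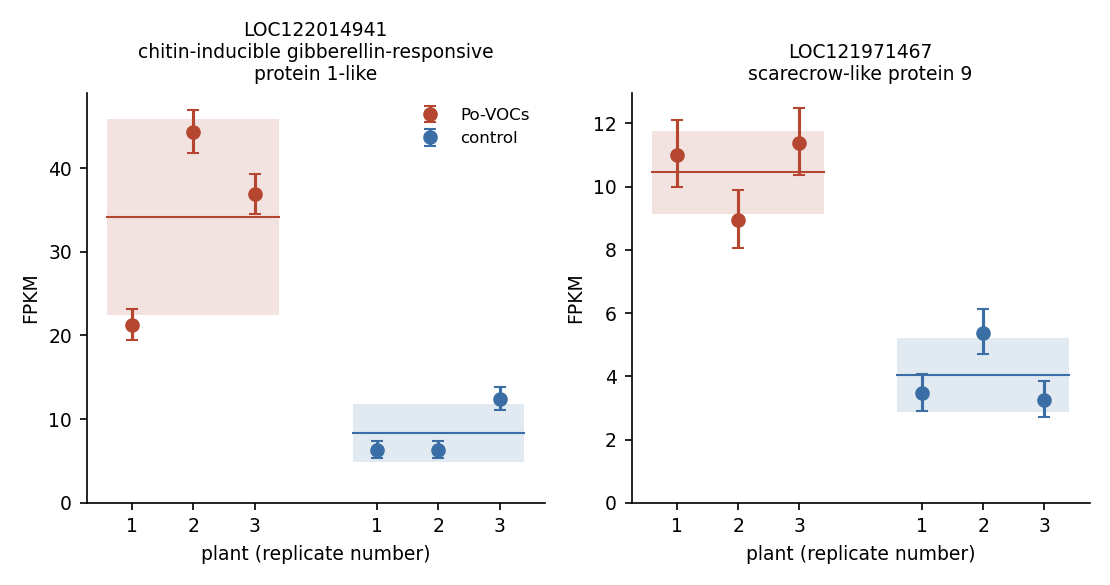
FPKM of LOC122014941 (left panel) and LOC121971467 (right panel) in each plant, on linear axes that start at 0. Points are single plants with exact 95% Poisson intervals of the count, lines are group means and shaded bands are ± 1 SD (n = 3); the lowest Po-VOCs plant stands above the highest control plant in both panels, at 21.3 against 12.4 FPKM and at 8.94 against 5.38 FPKM.

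The order of the plants within a group differed between the genes. Exposed plant 2 had the highest level of LOC122014941 and the lowest of LOC121971467, and control plant 3 had the highest level of LOC122014941 and the lowest of LOC121971467. As a result the FPKM ratio of LOC122014941 to LOC121971467 was 1.93, 4.95 and 3.24 in Po-VOCs plants 1 to 3, against 1.83, 1.17 and 3.81 in control plants 1 to 3. These ratios overlapped between the groups. Over the 6 libraries the log2 CPM (counts scaled to the library total and its TMM factor) of both genes had a Pearson r of 0.79. Since both genes were chosen for a higher level in exposed plants, that value follows in part from the choice. The deviations of each plant from its group mean, into which the difference between the groups does not enter, had an r of -0.38. Both values rest on the same 6 libraries and are descriptions.

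Set against all 41508 genes tested, the spread of LOC122014941 between plants of a group was above the middle and that of LOC121971467 below it. The biological coefficient of variation that edgeR fitted was 0.345 for LOC122014941, higher than in 70.7% of the genes, and 0.245 for LOC121971467, higher than in 35.9%. Both genes were picked among called genes, and a call at a smaller change needs a smaller spread. The lower spread of LOC121971467 therefore follows in part from the choice. In level, LOC122014941 stood above 85.6% to 94.3% of the tested genes in the exposed plants and above 55.7% to 74.5% in the control plants. LOC121971467 stood above 64.7% to 72.9% of them in the exposed plants and above 35.5% to 50.8% in the control plants.

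The other GRAS genes that could be identified are the 17 that the study annotated with the GRAS domain and listed as upregulated, which makes 19 with LOC122014941 and LOC121971467 included. They were selected by the study on these same libraries, so their direction is not independent evidence. GRAS genes outside that list, among them those that the study counted as downregulated, were not analysed here, and a count of 0 lower follows from how the list was chosen. By the quasi-likelihood test of edgeR, with Benjamini-Hochberg adjustment over the 41508 genes tested, 5 of the 19 were called higher in exposed plants and 0 lower, beside 1.09% of all tested genes called higher, 1.02% called lower and 2.11% called in either direction. For a call the adjusted p had to be under 0.05, the log2 fold change beyond 1 in size, and the group with the higher level had to average more than 1 FPKM. Since the list was chosen on this contrast, nothing is read from the count. The unadjusted p was under 0.05 in all 19, beside 10.8% of all tested genes that were also higher. The 5 called were the pair described above, LOC121976190 (scarecrow-like protein 9), LOC122023920 (DELLA protein SLR1-like) and LOC122027018 (SCARECROW-LIKE protein 7-like). The last gene inside the threshold was LOC122014941 itself, at an adjusted p of 0.0477, and the first outside it was LOC122047878, at 0.0566. DESeq2, the tool named in the methods of the study, called all 19 higher, where it called 3.57% of all genes with an adjusted p. The study chose its upregulated genes with that tool on these libraries, so this count follows from the choice. The FPKM of the groups did not overlap in 18 of the 19, as against 14.5% of all tested genes with the exposed plants above. The exception was LOC122035859, in which Po-VOCs plant 1 had 7.76 FPKM, against 7.93 FPKM in control plant 3. The median log2 fold change of the 19 was 1.56, beside 0.01 over all tested genes. The list of the study required a minimum fold change and a low adjusted p on these libraries. This median, the unadjusted p and the lack of overlap thus follow in part from the choice as well. The number of calls moved with single libraries, and so did that over all genes, which was 876 with every library. Without Po-VOCs plant 2, Po-VOCs plant 3, control plant 1 or control plant 2 it was 0 of the GRAS genes, beside 37, 33, 91 and 4 of all genes in that order. It was 3 of the GRAS genes without control plant 3, beside 1052 of all genes, and 7 without Po-VOCs plant 1, beside 1397.

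By product, the 6 genes of the chitin-inducible gibberellin-responsive type had fitted changes of 2.18-fold to 4.60-fold, and LOC122014941, at 4.15-fold, was the one of them that was called. The 4 genes of the scarecrow-like protein 9 type lay closely together at 2.59-fold to 2.90-fold, with LOC121971467 the lowest, and 2 of them were called. The DELLA genes, whose products restrain gibberellin responses, had 2.78-fold and 3.02-fold. The largest fitted changes of the list belonged to the scarecrow-like protein 8 genes, at 4.84-fold and 6.48-fold, but neither was called. LOC121996670, the one at 6.48-fold, had 3.94, 15.03 and 1.60 FPKM in Po-VOCs plants 1 to 3, against 1.09, 0.700 and 1.32 FPKM in control plants 1 to 3, so that its exposed plants differed widely and the lowest of them stood close to the highest control plant. Single genes were named as scarecrow-like protein 15 (2.27-fold), scarecrow-like protein 23 (3.01-fold), which in Arabidopsis acts with SCARECROW in the tissue around the veins, and NODULATION SIGNALING PATHWAY 2-like (2.95-fold), which in legumes is needed for root nodules. None of these 3 was called.

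**Figure D2:**
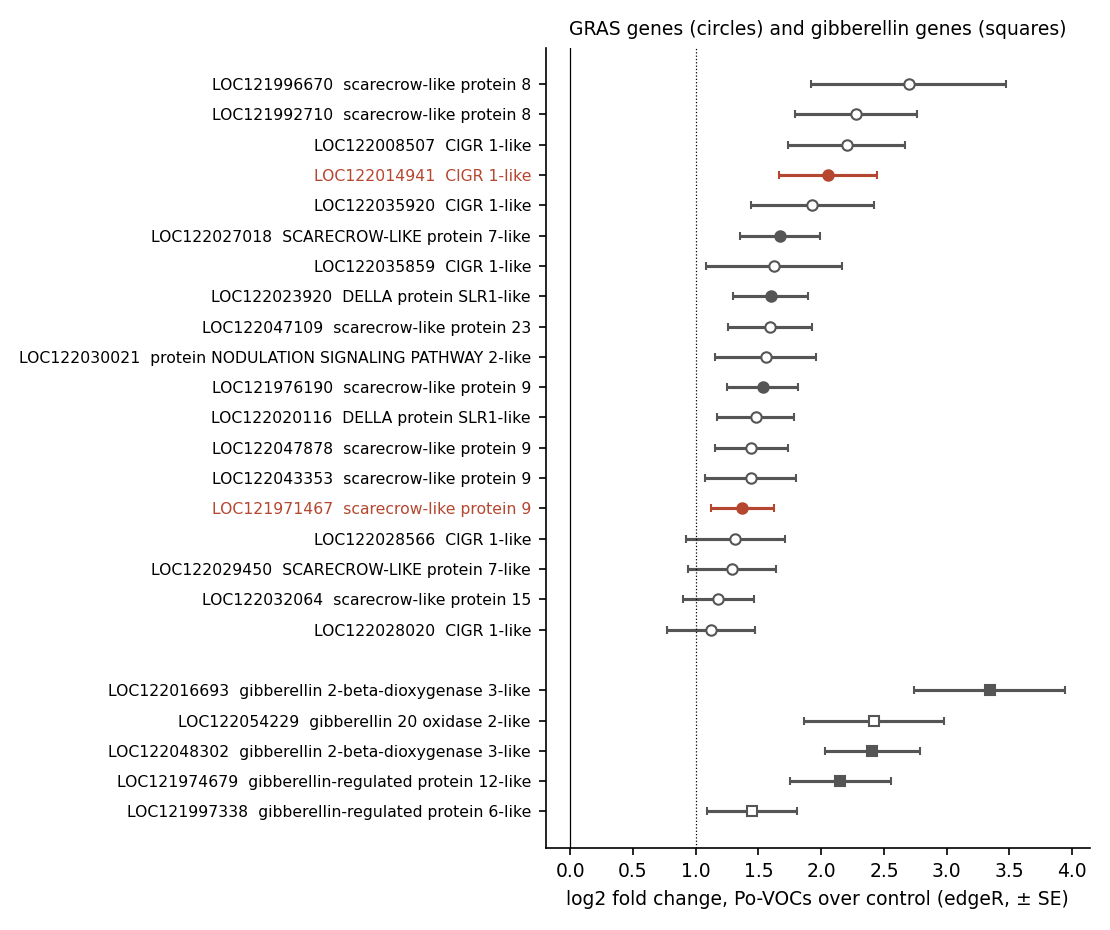
Fitted log2 fold change of Po-VOCs over control plants with its standard error for the 19 annotated GRAS genes (circles) and 5 gibberellin genes (squares), where CIGR stands for chitin-inducible gibberellin-responsive protein. Filled symbols were called by edgeR, the dotted line marks a log2 fold change of 1, and LOC122014941 (2.05) and LOC121971467 (1.37), in red, take ranks 4 and 15 of the GRAS genes.

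In order of level, LOC122014941 had the highest mean FPKM of the 19 genes in exposed plants and the third highest in control plants. The next gene in exposed plants was LOC122008507, of the same product, at 33.9 ± 16.0 FPKM (SD, n = 3), which did not differ from it beyond their spread. In control plants LOC122028020 (10.5 ± 2.17 FPKM) and LOC122028566 (8.57 ± 1.67 FPKM), also of the same product, stood above LOC122014941, again within the spread. LOC121971467 took rank 11 in exposed plants and rank 10 in control plants. Its neighbours in exposed plants were the DELLA gene LOC122020116, at 10.7 ± 1.45 FPKM, and the scarecrow-like protein 15 gene LOC122032064, at 10.1 ± 1.90 FPKM (SD, n = 3 each), and neither differed from it beyond its SD. FPKM is per length, so these orders compare levels between genes.

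Both genes had a gene of the same product on the chromosome of the same number and the other letter. The chromosomes of Zo_v1.1 carry the letters A and B, and 14 of the 19 GRAS genes formed 7 such pairs. Whether a pair holds copies of 1 gene or separate genes is not given in the sources used here. How reads that match both were counted is not given either, so the split of reads within a pair is uncertain.

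For LOC122014941 the counterpart was LOC122008507 on chromosome 8A. LOC122008507 had 16.3, 47.6 and 37.8 FPKM in Po-VOCs plants 1 to 3, against 6.52, 5.19 and 10.7 FPKM in control plants 1 to 3. It thus had the same low plant among the exposed and the same high plant among the controls. The FPKM ratio of LOC122008507 to LOC122014941 averaged 0.955 ± 0.165 in Po-VOCs plants and 0.906 ± 0.110 in control plants (SD, n = 3 each), and the ratios of the groups overlapped. Its fitted log2 change was 2.20 (standard error 0.46), within 1 standard error of that of LOC122014941, but with an adjusted p of 0.0601 in edgeR's quasi-likelihood test it was not called.

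For LOC121971467 the counterpart was LOC121976190 on chromosome 4B. LOC121976190 had 9.17, 8.40 and 10.8 FPKM in Po-VOCs plants 1 to 3, against 4.02, 3.53 and 2.20 FPKM in control plants 1 to 3. Its fitted log2 change was 1.54 (standard error 0.28), and with an adjusted p of 0.0444 in edgeR's quasi-likelihood test it was called. The FPKM ratio of LOC121971467 to LOC121976190 averaged 1.11 ± 0.081 in Po-VOCs plants and 1.29 ± 0.371 in control plants (SD, n = 3 each), with overlap. The single ratios were 1.20, 1.06 and 1.06 in Po-VOCs plants 1 to 3, against 0.860, 1.52 and 1.48 in control plants 1 to 3, so that control plant 1 alone lay below 1. Over all 7 GRAS pairs the log2 fold changes of the partners differed by at most 0.42, and the A to B ratio overlapped between the groups in 6. The exception was the pair LOC122028020 and LOC122028566 on chromosomes 10A and 10B, whose ratio was 1.17, 0.975 and 1.16 in Po-VOCs plants 1 to 3, against 1.20, 1.21 and 1.27 in control plants 1 to 3. The share of pairs without overlap over all genes was not computed, so nothing is read from this exception.

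**Figure D3:**
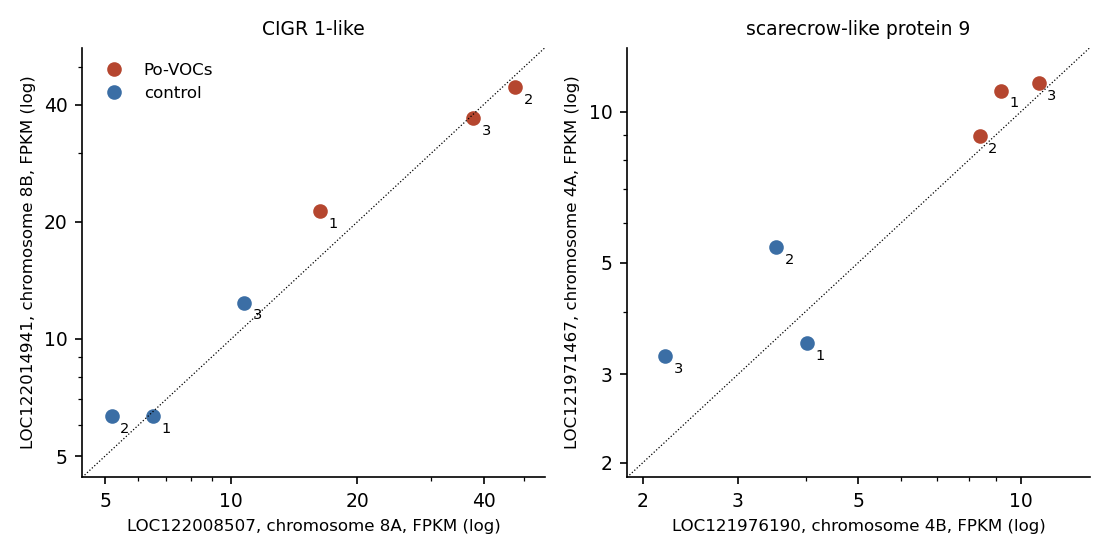
FPKM of LOC122014941 against LOC122008507 (left panel) and of LOC121971467 against LOC121976190 (right panel), 1 point per plant with its replicate number, on logarithmic axes with a dotted line of equal levels. The points of the left panel stay near the line in both groups, and in the right panel the control plants scatter around it, with A to B ratios of 0.860 to 1.52, more than the Po-VOCs plants do.

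The GRAS genes were divided by which plant of a group was highest, which the choice of the list did not use. Po-VOCs plant 2 was the highest exposed plant in 12 of the 19 genes, plant 1 in 5 and plant 3 in 2. All 6 genes of the chitin-inducible gibberellin-responsive type, both DELLA genes, both scarecrow-like protein 8 genes and the scarecrow-like protein 9 genes of chromosomes 2A and 2B made up the 12. The 2 genes with plant 3 highest were LOC121971467 and its counterpart on chromosome 4B. In the 5 others, the SCARECROW-LIKE protein 7 genes, scarecrow-like proteins 15 and 23 and NODULATION SIGNALING PATHWAY 2, plant 1 was highest. Control plant 3 was the highest control plant in 12 of the 19, and in 11 after TMM scaling of the libraries. The shares over all tested genes are not given here, so these counts cannot be called a trait of GRAS genes. The 19 are also not separate observations. In the 14 that form A and B pairs, the r of deviations between partners was 0.51 to 0.99. The 4 genes of the scarecrow-like protein 9 type thus fell into different patterns by chromosome. LOC122047878 on chromosome 2B, for instance, had 14.8, 30.4 and 19.3 FPKM in Po-VOCs plants 1 to 3, against 7.31, 7.27 and 9.18 FPKM in control plants 1 to 3, with exposed plant 2 far above the others, where LOC121971467 had its lowest exposed value. The span of its partner LOC122043353 on chromosome 2A shares 57 bases with that of LOC122043354, which had 8.86, 27.1 and 40.6 FPKM in Po-VOCs plants 1 to 3, against 3.30, 3.83 and 2.37 FPKM in control plants 1 to 3. The span of LOC122047878 overlaps that of LOC122048871, a pseudogene for which no values were found. The part of shared reads in LOC122043353 and in LOC122047878 was not tested.

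**Figure D4:**
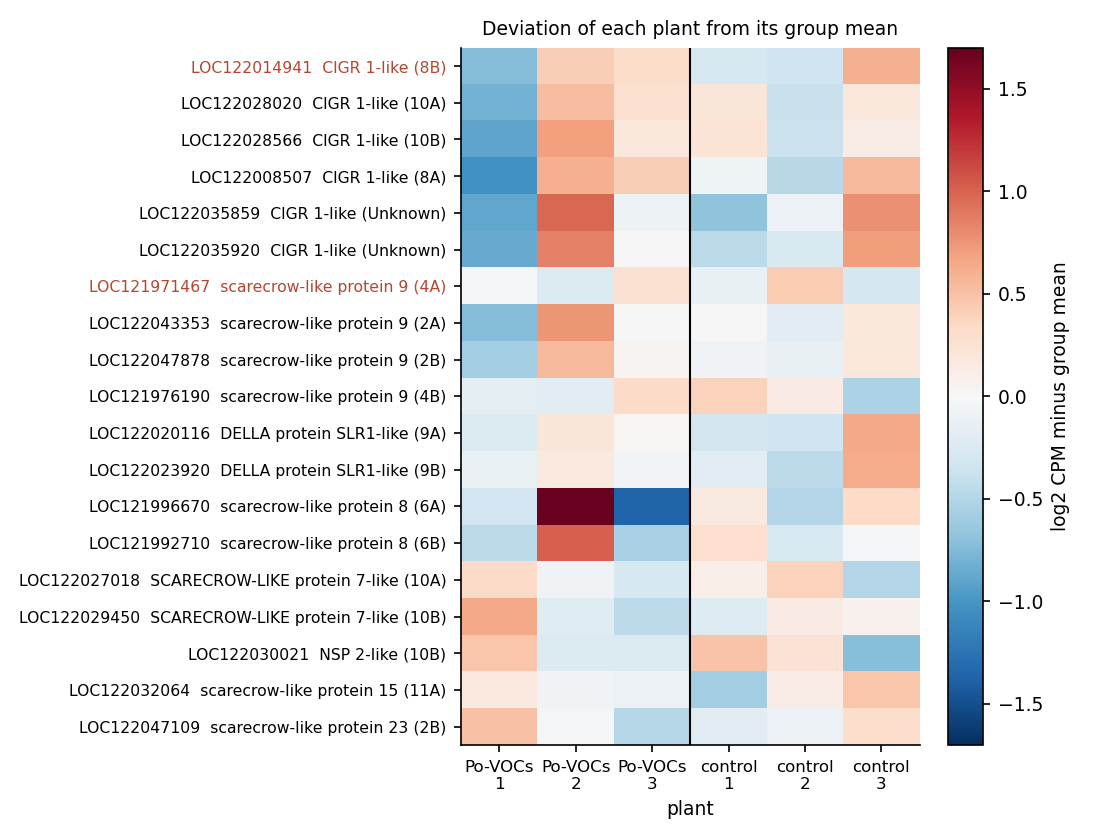
Log2 CPM of the 19 GRAS genes in each plant minus the mean of its group, with Po-VOCs plants left of control plants and the chromosome of each gene in brackets (CIGR, chitin-inducible gibberellin-responsive protein; NSP, NODULATION SIGNALING PATHWAY). LOC122014941 shares low values in Po-VOCs plant 1 with the genes of its product and high values in control plant 3 with most of them, whereas LOC121971467 and LOC121976190 have Po-VOCs plant 3 as their highest exposed plant.

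The likeness of patterns over the 6 libraries followed these lines only in part, and it is drawn from the same values. Among the other 18 GRAS genes, LOC122014941 was most like LOC122008507 (Pearson r of log2 CPM 0.99) and the DELLA gene LOC122020116 (0.97), and least like the NODULATION SIGNALING PATHWAY 2 gene LOC122030021 (0.59). For the deviations from the group means, the r with LOC122014941 was above 0 for 12 of the 18 genes, reaching 0.97 for LOC122008507, and below 0 for 6, down to -0.94 for LOC122030021. LOC121971467 was most like LOC121976190 (0.94) and LOC122027018, a SCARECROW-LIKE protein 7 gene (0.93), and least like the scarecrow-like protein 8 gene LOC121996670 (0.53). The r of its deviations was above 0 for 3 of the 18 genes and below 0 for 15, from 0.59 for LOC121976190 to -0.76 for the DELLA gene LOC122023920. All genes share the 6 libraries, and every gene of the list was chosen for a higher level in exposed plants.

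Among 37981 other tested genes that averaged more than 1 FPKM in either group, many had a like pattern. An r above 0.9 with LOC122014941 was found in 3.98% of them and with LOC121971467 in 2.81%. The most like LOC122014941 was LOC121992249, a poly [ADP-ribose] polymerase 2-A-like gene, whose relatives act in DNA repair, with an r of 0.998. It had 1.99, 4.76 and 3.57 FPKM in Po-VOCs plants 1 to 3, against 0.511, 0.468 and 0.981 FPKM in control plants 1 to 3. LOC122020021 and LOC122037463 followed, without a product name in the rows used here. The most like LOC121971467 were LOC122004883 and LOC121981868, also without a product name, and LOC121972841, named PHYTOCHROME KINASE SUBSTRATE 4-like after a phytochrome and phototropin signalling protein of Arabidopsis. LOC121972841 had 3.34, 2.00 and 3.77 FPKM in Po-VOCs plants 1 to 3, against 0.102, 0.400 and 0 FPKM in control plants 1 to 3, and so also had Po-VOCs plant 2 as its lowest exposed plant.

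Gibberellin is the hormone by which one of the products is named, and 5 further genes with gibberellin in their product name could be identified. These too come from the upregulated genes listed by the study. Their direction, the size of their change and the lack of overlap between the groups are therefore not independent evidence. The edgeR test called 3 of the 5 higher and 0 lower, beside 1.09% of all genes called higher, and the median log2 fold change was 2.41. DESeq2 called all 5 higher, beside 3.57% of all genes, which follows from the study's choice of genes with that tool. In all 5 the lowest exposed plant lay above the highest control plant, beside 14.5% of all tested genes. The number of edgeR calls was 0 without Po-VOCs plant 2 or 3 or without any 1 of the control plants, beside 4 to 1052 of all genes in the same fits. The called genes were both of the gibberellin 2-beta-dioxygenase 3-like type, an enzyme that inactivates gibberellin, and LOC121974679, a gibberellin-regulated protein 12-like gene. LOC122048302 (gibberellin 2-beta-dioxygenase 3-like, chromosome 1B) had 3.77, 4.93 and 4.30 FPKM in Po-VOCs plants 1 to 3, against 0.473, 1.18 and 0.782 FPKM in control plants 1 to 3, and its fitted log2 change was 2.41 (standard error 0.38, adjusted p = 0.0313 in edgeR's quasi-likelihood test). LOC122016693, of the same product on chromosome 1A, had 0.859, 2.41 and 2.45 FPKM in Po-VOCs plants 1 to 3, against 0.101, 0.197 and 0.266 FPKM in control plants 1 to 3. Of the 5 genes it was the most like LOC122014941, with an r of 0.98 over the 6 libraries, and it shared the low exposed plant 1 and the high control plant 3. LOC121997338, named as gibberellin-regulated protein 6-like, was the most like LOC121971467, with an r of 0.97, but was not called (adjusted p = 0.0871, in edgeR's quasi-likelihood test). LOC122054229, a gene of gibberellin 20 oxidase, which makes precursors of active gibberellin, had 2.41, 1.15 and 0.782 FPKM in Po-VOCs plants 1 to 3, against 0.138, 0.361 and 0.274 FPKM in control plants 1 to 3, and was not called (adjusted p = 0.0745, in edgeR's quasi-likelihood test).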

How the data were processed

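The members and gene lists were chosen with earlier results of these data known. According to the methods of the study, the authors trimmed paired-end reads with Trimmomatic, aligned the trimmed reads to Zo_v1.1 using HISAT2 and counted them per RefSeq gene with HTSeq-count. The deposited counts are whole numbers without normalization. The deposited FPKM values, attributed to Cufflinks, are each count scaled by 1 length per gene and by the library total. Versions of these tools, the HTSeq-count mode and its strand setting: not given in the sources used here. Genes with a near-identical copy may share reads and are uncertain.

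The test was run with edgeR 4.0.16 (R 4.3.3). Genes kept by filterByExpr (minimum count 10, minimum total 15) numbered 41508. TMM factors and the quasi-likelihood test without covariates followed, with p adjusted over all genes tested. Standard errors were taken as the size of the log2 fold change over the root of its F statistic. Log2 CPM used the TMM factors and had a prior count of 2. Simulated data with known changes were used to test the code, and limma 3.58.1 and DESeq2 1.42.0 were run as alternative tools. Depth was 13695463 to 14662442 counts per library, and Poisson intervals cover counting error only.

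Named genes were, by rule, both members, the annotated GRAS genes, the 3 most like genes over all genes and the extremes within the GRAS list, and the gibberellin genes called. Products come from the rows of the study's annotation table that were used here, whose fold changes and q-values were not used. LOC122043354, an overlapping neighbour, and the gibberellin genes that were not called were named after their values were seen. The overlapping pseudogene LOC122048871 was also named outside this rule. Protein and genome sequences were not used here, so the family list could not be widened by sequence and the closest proteins were not sought. Of the leaf markers planned, 1 could be found.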

Additional observations from a re-analysis of the deposited data

How the results depend on the processing

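The fitted log2 fold changes of LOC122014941 and LOC121971467 moved by less than the spread between plants under every alternative run. With single libraries left out they ran from 1.85 to 2.43 for LOC122014941 and from 1.23 to 1.64 for LOC121971467. Their pattern likeness (r = 0.79) ran from 0.70 to 0.87. The counts of calls moved more. Over all genes 876 were called, against 3089 by DESeq2, and between 4 and 1397 with a library left out. Of the GRAS genes 5 were called, against 19 by DESeq2, 8 without a filter on low counts (1091 of all genes), 3 without a composition factor (881 of all genes), and 0 to 7 with a library left out. Of the gibberellin genes 3 were called, against 5 by DESeq2 and 0 to 2 with a library left out. Replicate numbers name the plants only: deviations of plants of the same number correlated at -0.02, 0.02 and -0.10. With the replicate block the calls were 136 over all genes, 0 of the GRAS genes and 0 of the gibberellin genes. No profile search for the GRAS family was run. At 131 to 1171 counts per plant, the Poisson intervals of the unscaled counts of some plants of a group overlapped. Exposed plants 1 and 3 in LOC121971467 were among them. After TMM scaling the log2 CPM of LOC121971467 was 4.86 in exposed plant 1 and 5.16 in exposed plant 3. TMM-scaled intervals were not computed, so the overlap does not show whether depth limits telling such plants apart.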

Other observations

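Of the nearest genes on each side of LOC122014941 and LOC121971467, none of those tested was called. Only 2.11% of all tested genes were called in either direction, so nothing is read from this lack of calls. The nearest on the left of LOC122014941, LOC122014843, lies 588 bases away and had 2.88 ± 1.53 FPKM in Po-VOCs plants and 2.98 ± 1.21 FPKM in control plants (SD, n = 3 each). The nearest on the right, LOC122014334, lies 4158 bases away and had 27.6 ± 5.86 FPKM in Po-VOCs plants and 21.3 ± 2.86 FPKM in control plants (SD, n = 3 each). By edgeR's quasi-likelihood test their adjusted p was 0.923 and 0.413. LOC121971467 stands farther from others, with 15967 bases to LOC121973724 on the right and 79785 bases to LOC121971465 on the left. LOC121973724 had 0.194 ± 0.247 FPKM in Po-VOCs plants and 0.265 ± 0.236 FPKM in control plants (SD, n = 3 each), and had too few counts for a test. LOC121971465 had 6.30 ± 0.498 FPKM in Po-VOCs plants and 7.82 ± 0.930 FPKM in control plants (SD, n = 3 each), with an adjusted p of 0.425 in the same test. These neighbours were named after their values were seen.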
